A study of Ovis aries with 18 samples.

Results

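Isolated cytosines are CpG cytosines that stand alone in the sperm methylation data of these rams. The genome was divided into non-overlapping windows of 200 bp from the start of each numbered chromosome, and a cytosine was called isolated when its window held no other listed cytosine on either strand. This gave 31737 isolated cytosines in as many windows, which is 1.75% of the 1813357 cytosines listed on the 26 numbered chromosomes and 16.1% of their 196856 windows. The remaining windows held 2 to 19 cytosines (136402 windows with 951166 cytosines, called grouped here) or at least 20 (28717 windows with 830454 cytosines). The choice used only positions and no methylation level directly. A cytosine was listed only when all 6 rams reached 10 reads there. In some rams coverage moved with the level (below), so the choice was not independent of the level. An isolated cytosine can have CpG neighbours that missed this minimum, so the windows are sparse in listed cytosines, and their CpG content was not counted.

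Sperm DNA came from 6 Polypay rams and was examined by reduced representation bisulfite sequencing (RRBS), which reads methylation in enzyme-cut fragments that are rich in CpG. The 3 control rams (Ram410, Ram423 and Ram444) received a basal diet, and the 3 methionine-treated rams (Ram424, Ram498 and Ram511) received that diet topped with 1.5 g of methionine in a rumen-protected form. Methionine is a source of methyl groups, and it was given on 2 meals of 0.45 kg a day over 77 days that began at a mean age of 88 days. Semen was collected 1 month after feeding ended. Each diet has 3 animals and sperm is a single cell type whose purity was not checked here, since no marker of other cells is measured by these counts.

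In mammals, a methyl group on the cytosine of a CpG site is laid down in the male germ line before birth and is maintained through the divisions that lead to sperm. CpG sites that stand far apart are methylated over most of the genome, and dense clusters of CpG sites, the CpG islands found at many promoters, are kept free of methylation. A partly methylated site can therefore be a mixture of sperm that carry the mark and sperm that do not, or of the 2 parental copies, since each sperm holds only 1 of them. The counts alone do not show what gave a partial level, and whether the rams differed in DNA sequence at these cytosines was not examined.

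Isolated cytosines were mostly methylated, in contrast to cytosines that had listed neighbours. The methylation level, the percentage of reads at a cytosine that were methylated, averaged over isolated cytosines 69.9% in Ram410, 70.5% in Ram423 and 71.3% in Ram444, and 71.0% in Ram424, 68.7% in Ram498 and 68.7% in Ram511. Grouped cytosines averaged 20.2%, 21.1% and 21.6% in the same control rams and 21.6%, 19.5% and 19.8% in the methionine-treated rams. Every ram was thus near 70% at isolated cytosines and near 20% at grouped ones, and the difference of 49.4 points ± 0.309 (SD over rams, n = 6) was in the same direction in 6 of 6 rams. By an exact two-sided sign-flip test over the 6 rams its p was 0.0313, the smallest value that 6 rams can give. The classes themselves depended on coverage, which moved with the level in Ram498 and Ram511 (below), and the p does not take this into account.

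The level fell with each step in the number of cytosines per window. Windows with 2 cytosines had a mean level of 62.2%, which was 7.82 points ± 0.121 (SD, n = 6) below the isolated ones, and windows with 3 to 4 were 18.6 points ± 0.210 below. The gap was 43.7 points ± 0.228 for windows with 5 to 9 cytosines, 63.2 points ± 0.508 for 10 to 19 and 68.4 points ± 0.934 for at least 20. Isolated cytosines were the higher ones in 6 of 6 rams in each of these 5 comparisons, each with an exact sign-flip p of 0.0313 before and after Benjamini-Hochberg adjustment over the 5. The same dependence of the classes on coverage applies to them.

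**Figure D1:**
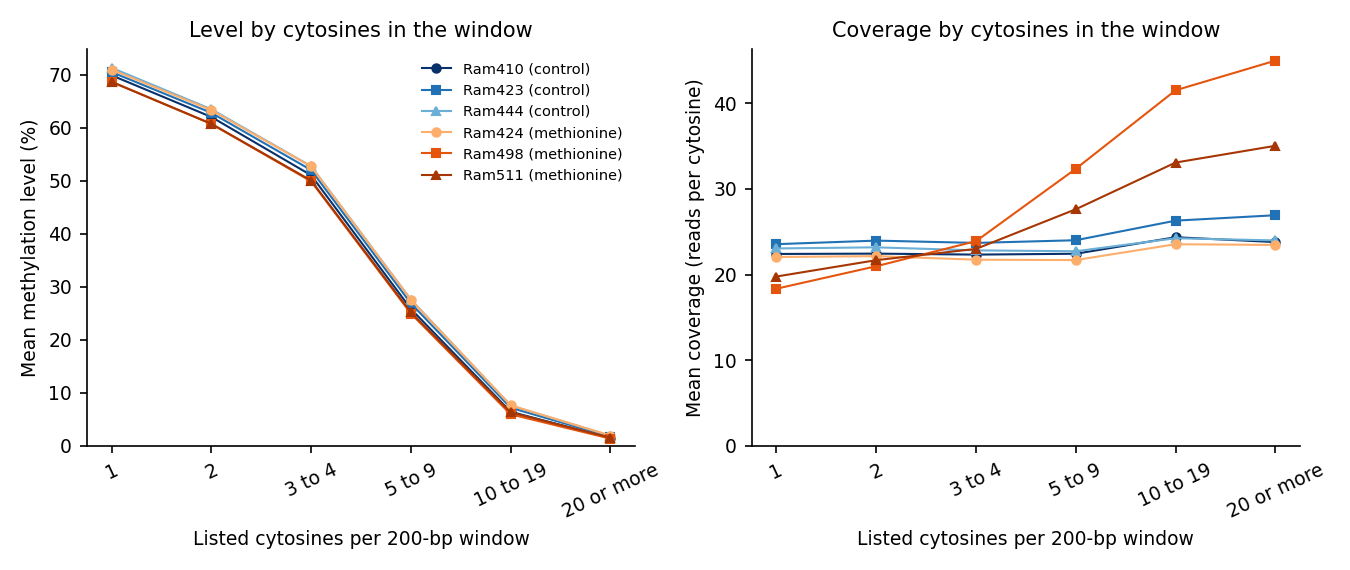
Mean methylation level (%) and mean coverage (reads) of each ram against the number of listed cytosines in a 200-bp window, with 1 line per ram. The level falls from about 70% at isolated cytosines to under 2% in windows of at least 20 in every ram, whereas the coverage of Ram498 and Ram511 rises along the same axis and that of the other rams stays near 22 to 27 reads.

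The diet difference in the mean level of isolated cytosines was about as large as the SD over all rams (1.14 points), which includes it. Control rams averaged 70.6% ± 0.713 and methionine-treated rams 69.5% ± 1.33 (SD, n = 3 each), a difference of −1.13 points with an exact two-sided permutation p of 0.3. With 3 rams against 3 the smallest p is 0.1. Ram424 lay among the control rams, and without it the difference was −1.90 points, while it was −0.755 points without Ram498 and −0.743 points without Ram511 (exact permutation p = 0.6 for both). The methionine-treated mean was the lower one on 26 of 26 chromosomes, with differences of −1.59 to −0.18 points, but all chromosomes come from the same 6 rams. The gap between isolated and grouped cytosines was 49.6 points ± 0.147 in control rams and 49.2 points ± 0.239 in methionine-treated rams, and the 2 diets did not overlap in it (difference −0.462 points, exact permutation p = 0.1). With at least 20 reads in every ram this difference was −0.867 points (exact permutation p = 0.4), and from pooled reads −4.15 points (exact permutation p = 0.2), so the separation was lost.

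Sequencing depth of isolated cytosines set Ram498 and Ram511 apart from the other 4 rams. Mean coverage at isolated cytosines was 22.4 reads in Ram410, 23.6 in Ram423 and 23.1 in Ram444, against 22.1 in Ram424, 18.4 in Ram498 and 19.8 in Ram511. At grouped cytosines Ram498 and Ram511 had 35.8 and 29.7 reads, more than any of the other rams, which had 22.7 to 25.2. The log2 ratio of isolated to grouped mean coverage was −0.96 in Ram498 and −0.59 in Ram511 but only −0.10 to −0.03 in the other 4 rams. Its mean was −0.30 ± 0.39 (SD, n = 6), and it was −0.17 without Ram498. Because listing required 10 reads in every ram, coverage took part in setting which cytosines were isolated, so these values are given as a description with no test. Ram424 received methionine too and did not share the profile of Ram498 and Ram511.

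Within the isolated cytosines, the coverage of these 2 rams also moved with the level. Isolated cytosines with a mean level under 10% had 35.3 reads in Ram498 and 27.9 in Ram511, and those at or above 90% had 12.6 and 16.6 reads. In the other 4 rams the unmethylated cytosines were slightly less covered than the methylated ones, with 19.8 to 21.1 against 22.7 to 24.4 reads. The ratio of unmethylated to methylated coverage was 2.81 in Ram498 and 1.68 in Ram511, against 0.855 to 0.874 elsewhere.

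**Figure D2:**
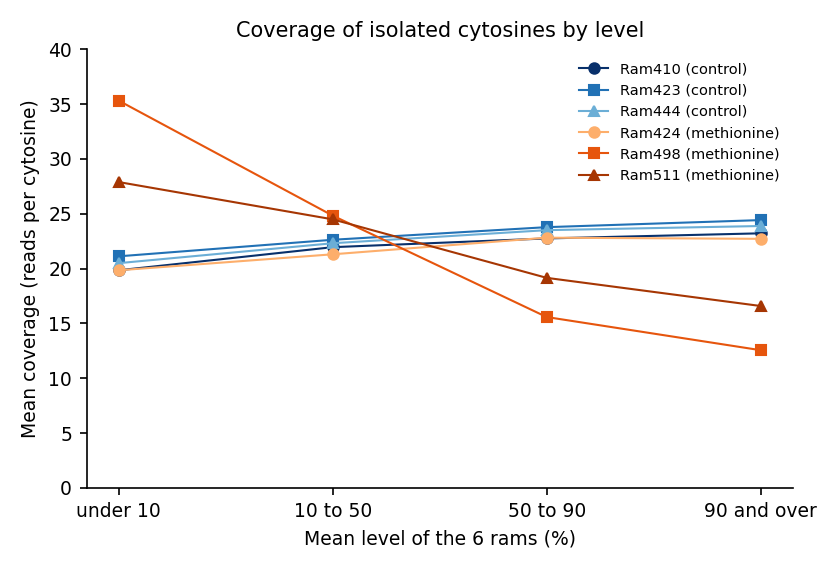
Mean coverage (reads) of each ram at isolated cytosines in 4 bands of the mean level over the 6 rams. Coverage falls from 35.3 to 12.6 reads in Ram498 and from 27.9 to 16.6 reads in Ram511 between the lowest and the highest band, while the other 4 rams stay between 19.8 and 24.4 reads in those bands.

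Means over reads therefore differed from means over cytosines. When all reads at isolated cytosines were pooled within a ram, the methylated share was 72.1%, 72.6% and 73.4% in the control rams. It was 72.8%, 49.7% and 59.5% in Ram424, Ram498 and Ram511. The diet difference was then −12.0 points (exact permutation p = 0.3) in place of −1.13 when each cytosine counted once. Ram498 and Ram511 alone were low, so the read-weighted value moved with their coverage, and the part of coverage in the smaller difference of mean levels was not tested.

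The 10-read minimum bore on which cytosines were isolated. In Ram498, 59.5% of isolated cytosines had 10 to 14 reads, compared with 30.9% in Ram511 and 12.3% to 15.5% in the other 4 rams, so many were near the minimum in that ram. Isolated and grouped cytosines were therefore also compared at like coverage of Ram498, a comparison added after the values were seen. Where Ram498 had 10 to 14 reads, 18892 isolated cytosines averaged 89.8% and grouped ones 83.2%, a gap of 6.64 points (6.05 to 7.30 over the 6 rams). At 15 to 19 reads the levels were 76.0% and 47.8%, and at 20 to 29 reads 35.1% and 11.9%. At 30 reads or more, 4627 isolated cytosines averaged 8.21% and grouped ones 3.20%, a gap of 5.01 points. Isolated cytosines were higher in 6 of 6 rams in each of the 4 bands (exact sign-flip p = 0.0313), but within a band the gap was 5.01 to 28.2 points in place of 49.4. When every ram had to have at least 20 reads, 2023 isolated cytosines were left, at 25.5% in methionine-treated and 26.7% in control rams, and the gap to grouped cytosines was 20.8 points. When this was asked only of the 4 rams other than Ram498 and Ram511, also added after the values were seen, 10249 were left at 78.4% and 79.4%, and the gap was 56.0 points.

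Levels of isolated cytosines fell mostly at the ends of the scale. Averaged over the 6 rams, 18832 (59.3%) were at or above 90% and 5870 (18.5%) under 10%, with 3152 (9.93%) from 10% to 50% and 3883 (12.2%) from 50% to 90%. Grouped cytosines had the opposite weighting, with 14.5% at or above 90% and 71.7% under 10%. All 6 rams were above 90% at 13880 isolated cytosines (43.7%, against 11% of grouped ones), and all 6 were under 10% at 4425 (13.9%, against 63.8%).

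Every read was methylated in all rams at 1758 isolated cytosines and unmethylated in all rams at 1487. The most deeply covered of the fully unmethylated ones lay on the plus strand of chromosome 12 at position 33985789 (Oar_rambouillet_v1.0, as for all positions here), with 0% of 67, 70 and 82 reads in Ram410, Ram423 and Ram444 and of 61, 56 and 79 reads in Ram424, Ram498 and Ram511. Its nearest listed cytosine was 79167 bp away and had a mean level of 98.5%. The counterpart among fully methylated ones was on the minus strand of chromosome 3 at position 108833210, with 23 to 35 reads per ram, and a cytosine 13 bp away had a mean level of 99.3%. Each was the site of its kind with the highest minimum coverage, and they show that isolation alone did not fix the level.

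The shares at the ends of the scale differed between rams in a way that depended on depth. Isolated cytosines above 90% made up 60.7%, 60.9% and 62.2% in the control rams and 60.3%, 56.4% and 57.3% in Ram424, Ram498 and Ram511. No methionine-treated ram reached the lowest control ram (58.0% ± 2.05 against 61.3% ± 0.810, SD, n = 3 each; exact permutation p = 0.1). Levels from 20% to 80% were held by 12.0%, 12.7% and 12.1% of isolated cytosines in control rams and by 13%, 13.8% and 13.3% in methionine-treated rams, again without overlap (exact permutation p = 0.1).

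At exactly 100%, the shares were 39.6%, 37.5% and 40.1% in control rams and 36.1%, 46.2% and 40.6% in methionine-treated rams, with Ram498 the highest (difference 1.90 points, exact permutation p = 0.7). A cytosine with few reads reaches exactly 100% more readily, so 10 reads were drawn from each ram at each cytosine. The share with all 10 methylated was then 51.1%, 50.6% and 52.3% in control rams and 49.1%, 48.9% and 47.5% in methionine-treated rams, so that at equal depth the difference turned to −2.83 points (exact permutation p = 0.1). The share at 0% was 15.6%, 14.2% and 13.7% in control rams and 12.9%, 12.7% and 13.1% in methionine-treated rams (p = 0.1, exact permutation), and with 10 reads drawn it was 18.1%, 16.9% and 16.4% against 15.5%, 17.7% and 17.4%, where the diets overlapped.

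Neighbouring context differed widely among isolated cytosines. The nearest listed cytosine was at a median of 210 bp, with quartiles of 41 and 4955 bp and a maximum of 863509 bp. A window border, not distance, set apart 15736 of them (49.6%), which had another listed cytosine within 200 bp, and 204 of these had it at the adjoining base. The strands were evenly represented, with 15998 on the plus strand and 15739 on the minus strand.

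Remote isolated cytosines were the most methylated. The mean level over the 6 rams was 56.9% ± 1.26 (SD, n = 6) where another listed cytosine lay within 200 bp and 82.9% ± 1.04 where none did. By distance it was 51.1% at 1 to 20 bp, 60.4% at 21 to 50 bp and 57.1% at 51 to 200 bp, then 66.9% from there to 1000 bp, 88.9% from there to 10000 bp and 85.5% beyond. The rise was not even, since the 21 to 50 bp and 51 to 200 bp bins were out of order, as were the last 2. The diet difference was −0.81 to −1.55 points in these 6 bins, with exact permutation p of 0.3 to 0.4. Distances were to listed cytosines only, so they depended on coverage as the classes did.

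Cytosines in the 2 flanking windows gave a steeper order. The 15083 isolated cytosines with no listed cytosine in either flanking window had a mean level of 84.6% ± 1.01 (SD, n = 6), and the 10076 with 1 to 4 had 75.4% ± 1.23. The level was 46.0% ± 1.72 at 3095 isolated cytosines with 5 to 9 listed cytosines in the flanks, 17.0% ± 1.35 at 2246 with 10 to 19, and 5.22% ± 0.622 at 1237 with at least 20. The level thus fell with the crowding of the flanks in the same order as it fell with the crowding of the windows. Both kinds of crowding count listed cytosines only and so depended on coverage.

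**Figure D3:**
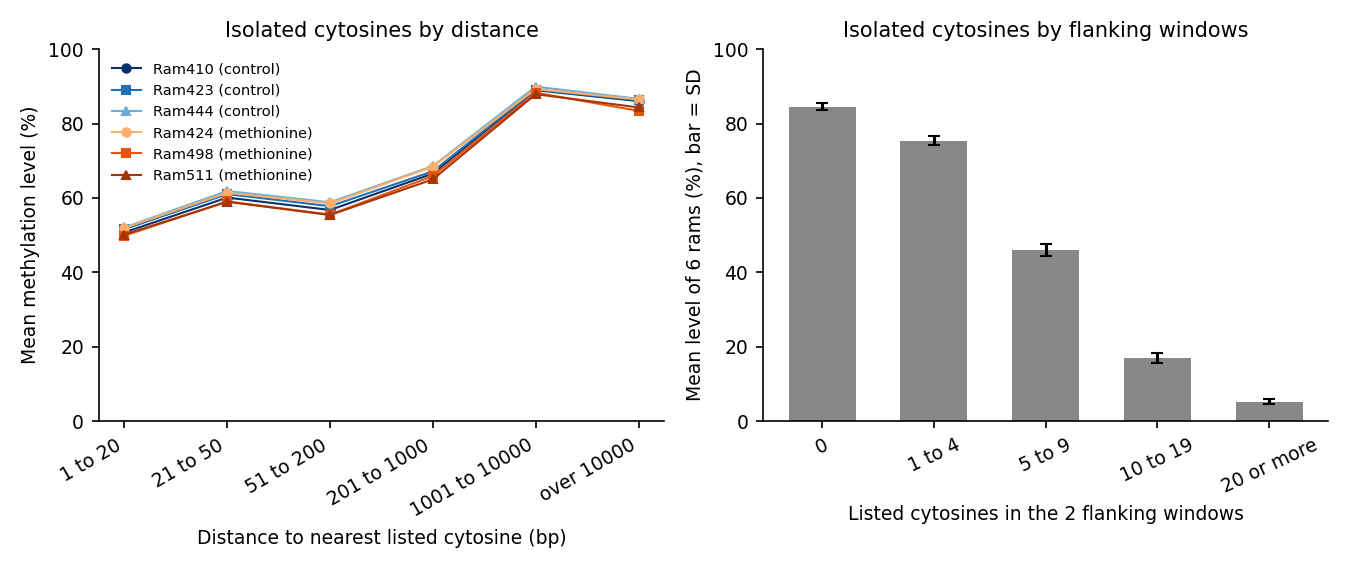
Mean methylation level (%) of isolated cytosines in each ram by distance to the nearest listed cytosine (bp) and by the number of listed cytosines in both flanking windows. Levels range from 51.1% at 1 to 20 bp to 88.9% between 1000 and 10000 bp, and from 84.6% with empty flanks to 5.22% with at least 20 cytosines there.

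Levels of isolated cytosines resembled those of near neighbours and not those of remote ones. The mean absolute gap between the level of an isolated cytosine and that of its nearest listed cytosine in the same ram was 6.46 points at 1 to 20 bp, 8.13 points at 21 to 50 bp and 10.5 points at 51 to 200 bp. It rose to 19.7 points up to 1000 bp, 36.0 points up to 10000 bp and 39.6 points beyond. By chromosome, isolated cytosines made up 1.43% to 2.11% of the listed cytosines, and their mean level ran from 61.9% on chromosome 5 to 74.7% on chromosome 19.

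Rams differed more from each other at isolated than at grouped cytosines. The SD between rams of 1 diet averaged 6.19 points at isolated and 3.63 points at grouped cytosines, and the median range over the 6 rams was 8.33 against 4.55 points. A range over 50 points was found at 2176 isolated cytosines (6.86%, against 2.94% of grouped ones). At 621 of them (1.96%, against 0.433%) one ram was under 10% while another was over 90%.

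The larger spread came with the larger share of sites whose mean level over the rams lay from 10% to 90%. To a smaller extent, it was also seen at equal level. Within bands of the mean level, the SD of isolated against grouped cytosines was 2.67 against 1.71 points under 10%, 15.3 against 12.7 points from 10% to 50%, 18.3 against 17.1 points from 50% to 90%, and 3.28 against 3.13 points above. The median ratio of the variance between rams of a diet to that of counting reads (the overdispersion) was 2.43 for both in the band from 50% to 90% and was 1.80 against 1.68 from 10% to 50%. In the outer bands it was under 1 for both kinds of cytosine.

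**Figure D4:**
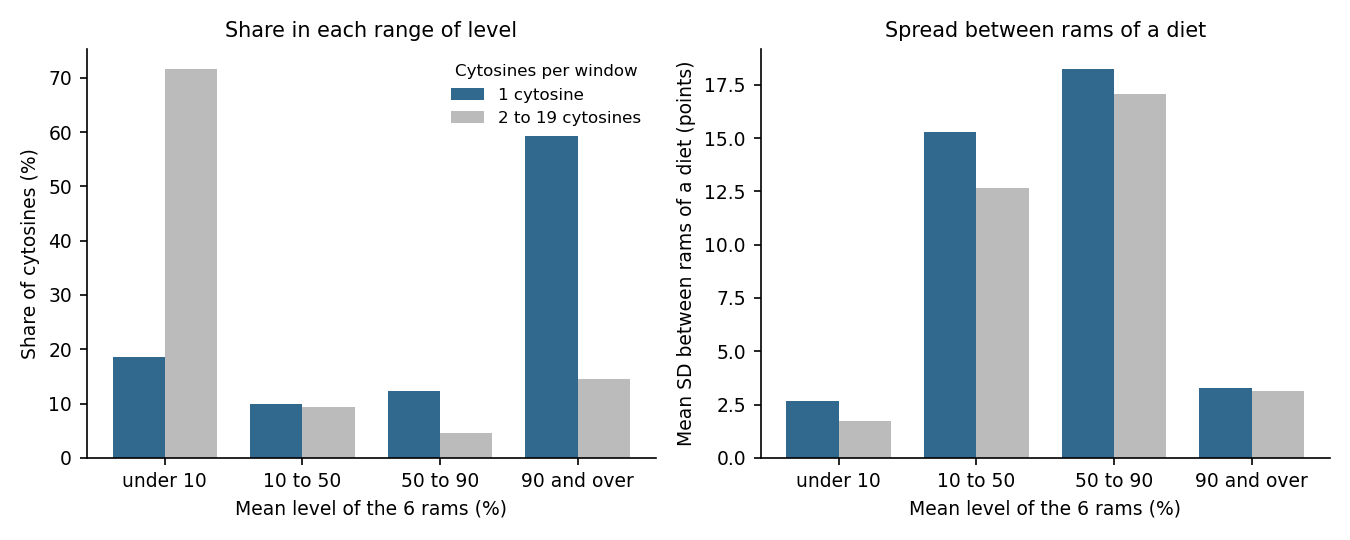
Share of cytosines (%) in 4 bands of the mean level, and the mean SD between rams of a diet (points) in each band, for isolated and grouped cytosines. Isolated cytosines gather at or above 90% (59.3%) and grouped ones under 10% (71.7%), and the SD is highest from 50% to 90% in both, at 18.3 and 17.1 points.

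Rams of the same diet were on average no closer to each other than rams of different diets. Over the 15 pairs of rams the mean absolute difference at isolated cytosines was 6.5 to 7.59 points. Pairs of the same diet averaged 6.94 points and pairs of different diets 6.93 points, a difference of −0.0105 points (exact permutation p = 1 over the 20 ways to assign rams to diets) whose sign changed when a methionine-treated ram was left out. Across isolated cytosines, Pearson's r between 2 rams was 0.927 to 0.947, and across grouped cytosines 0.961 to 0.973. These describe agreement across cytosines, which are not independent replicates.

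Diet differences at single isolated cytosines were then tested with the fit over all 1850625 cytosines, including those on the X chromosome and contigs. A differentially methylated cytosine (DMC) had a q value, the Benjamini-Hochberg adjusted p of a logistic regression with overdispersion, under 0.01 and a difference between the pooled reads of the diets of over 20 points. There were 29 DMCs among the 31737 isolated cytosines (0.0914%), against 0.0184% of all cytosines, 281 (0.0295%) of the grouped ones and 30 (0.00361%) of those in windows of at least 20. Isolated cytosines thus held 8.50% of the DMCs and 1.71% of all cytosines. At 24 of the 29, Ram498 had under 15 reads. None passed where all rams had at least 20 reads (0 of 2023, with 103 or 5.09% at an unadjusted p under 0.05), while 61 of all cytosines did. These 2023 averaged 25.5% in methionine-treated and 26.7% in control rams, unlike the isolated cytosines as a whole. At the main share of 0.0914% few of 2023 sites would pass, so the 0 does not show that calls are lost at higher depth. With an F test or with limma on logit levels no cytosine of any class passed. Isolated cytosines at an unadjusted p under 0.05 were then 277 (0.873%) and 3234 (10.2%). Matching shares of all cytosines are not given for these fits or for the 20-read minimum, so none of these shares can be read as high or low. With 1 ram left out 38 (without Ram423) to 75 (without Ram444) isolated cytosines passed, while over all cytosines 523 and 643 did and the counts ran from 446 to 1424, so the counts rose over all cytosines too.

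All isolated DMCs had a mean level over the rams between 10% and 90%. Such a mean can also come from 1 diet near 0% and the other near 100%, as on chromosome 18 at position 69320073. By bands of the mean level over the rams, 7 were among the 3152 at 10% to 50% (0.222%) and 22 among the 3883 at 50% to 90% (0.567%), with none in the outer bands, in which the 20-point requirement leaves little room. Grouped cytosines in the same bands had 0.141% and 0.360%. By coverage of Ram498, the share of isolated against grouped cytosines was 0.127% against 0.0754% at 10 to 14 reads and 0.0598% against 0.0346% at 20 to 29 reads, but 0.0616% against 0.0734% at 15 to 19 reads and 0% against 0.0108% at 30 or more. The higher share of isolated cytosines was therefore not seen in every coverage band, and the bands outside 10 to 14 reads rest on 3, 2 and 0 isolated DMCs. None of these differences in share was tested.

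Direction was mixed, with 19 of the 29 DMCs hypomethylated and 10 hypermethylated in methionine-treated rams. The hypomethylated share of 65.5% compares with 86.5% of the grouped DMCs, a difference that was not tested. Looking past the q threshold, the rams of the 2 diets did not overlap at 1557 isolated cytosines (4.91%, against 2.43% of all cytosines and 3.25% of grouped ones), of which 989 were lower and 568 higher in methionine-treated rams. An unadjusted p under 0.05 was found at 1947 (6.13%, against 2.94% and 3.79%). Rams that share 1 level cannot separate by diet. All 6 rams were at 0% at 4.69% of isolated and 24.6% of grouped cytosines, and at 100% at 5.54% and 1.57%. The shares were not compared at equal level.

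At the 29 DMCs the smallest difference was 30.3, the median 50.9 and the largest 96.5 points, and 16 exceeded 50 points. The diets did not overlap at any of the 29, but these sites were chosen on the same rams. Coverage was 10 to 125 reads, and the lowest of the 6 rams at a site had a median of 12 reads. At 16 DMCs all 3 rams of 1 diet were at exactly 0% or 100%. At 11 of those 16 all 3 rams of the other diet lay between 20% and 80%, so that a uniform diet faced a mixed one. The uniform diet was control at 5 DMCs with 100% and 3 with 0%, and methionine at 5 with 100% and 3 with 0%. A uniform diet adds nothing to the estimated overdispersion, so the test itself favours such sites. The overdispersion was at its minimum of 1 at 17 of the 29. Whether the rams differed in DNA sequence at these sites was not tested.

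**Figure D5:**
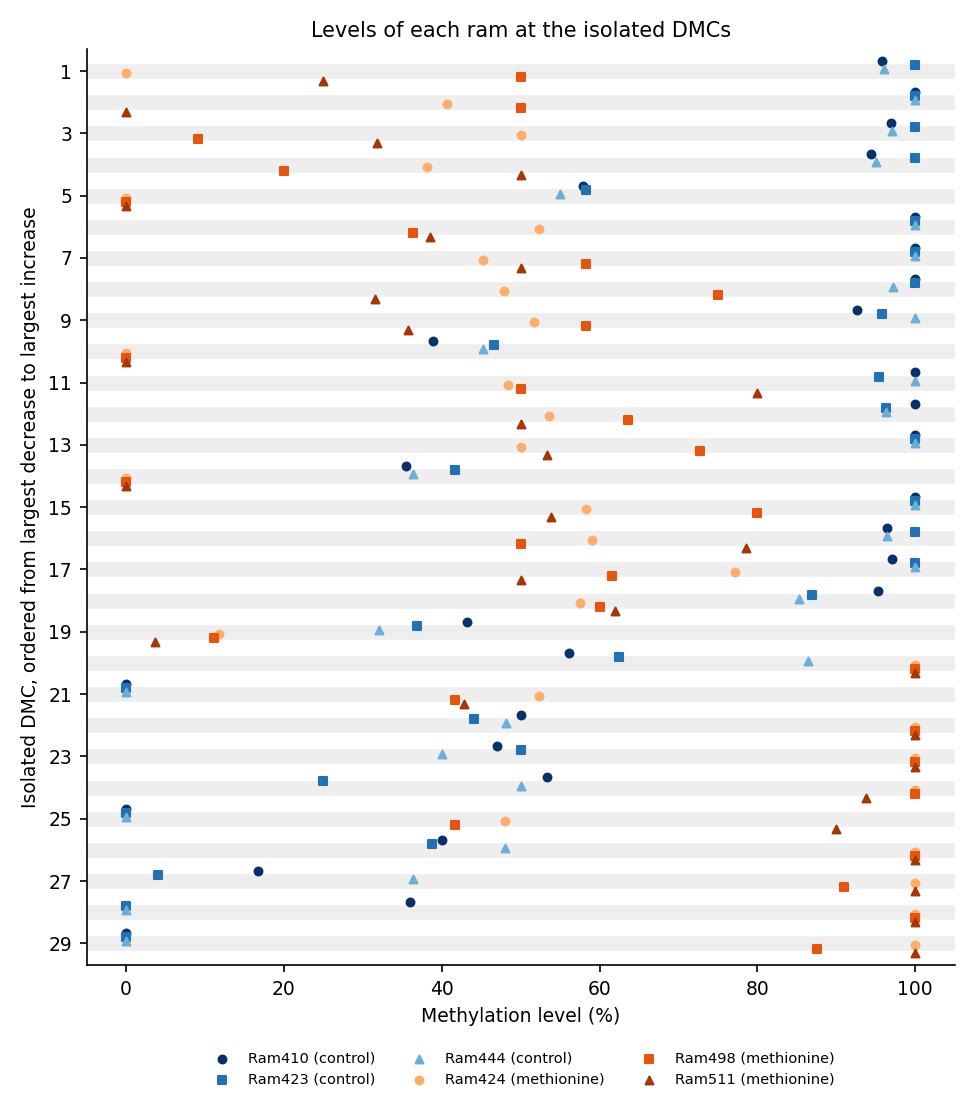
Methylation level (%) of each ram at the 29 isolated DMCs, 1 row each, ordered from the largest decrease to the largest increase in methionine-treated rams. The points of the 2 diets do not overlap in any row, and many rows have 1 diet at 0% or 100% and the other near the middle of the scale.

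The 5 largest decreases were led by a cytosine on the minus strand of chromosome 17 at position 74903255. Its level was 95.8%, 100% and 96.0% in Ram410, Ram423 and Ram444, and 0%, 50% and 25% in Ram424, Ram498 and Ram511. Control rams averaged 97.3% ± 2.36 and methionine-treated rams 25% ± 25 (SD, n = 3 each), and the pooled difference was −82.9 points (q = 0.00248). The methionine-treated rams thus ranged from unmethylated on 35 reads, with a 95% Wilson interval of 0% to 9.89%, to 50% on 10 reads in Ram498, with an interval of 23.7% to 76.3%. The nearest listed cytosine was 18883 bp away. The call was lost without Ram410, Ram423, Ram444 or Ram511 (q = 0.0517, 0.197, 0.087 and 0.149).

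Chromosome 11 held another 2 of the 5. At position 6453209 on the minus strand all control rams were at 100%, and Ram424, Ram498 and Ram511 were at 40.6%, 50% and 0% (difference −67.3 points, q = 5.11e-06, and q = 0.154 without Ram444). At position 4946172 on the plus strand the control rams were at 97.0%, 100% and 97.1% and the methionine-treated rams at 50%, 9.09% and 31.8% (difference −60.9 points, q = 4.42e-07). The decrease there did not extend to the nearest listed cytosine, 45 bp away, which differed by 2.17 points in the opposite direction.

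On chromosome 2, position 167416887 on the minus strand lay in an intron of LOC101115605 and in a BTLTR1 element, a long terminal repeat left by a retrovirus. Control rams were at 94.4%, 100% and 95%, and methionine-treated rams at 38.1%, 20% and 50% (difference −60.8 points, q = 7.73e-10). The remaining one was intergenic, on the minus strand of chromosome 9 at position 80703436. It was partly methylated in the control rams, at 57.9%, 58.3% and 55.0%, and had no methylated read in Ram424, Ram498 and Ram511 (difference −57.1 points, q = 1.56e-11). These zeros rest on 24, 12 and 33 reads, with upper Wilson bounds of 13.8%, 24.2% and 10.4%.

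The largest increase, and the largest difference of all isolated DMCs, was on the minus strand of chromosome 18 at position 69320073. No read was methylated in Ram410, Ram423 and Ram444 (31, 22 and 33 reads), and Ram424, Ram498 and Ram511 were at 100%, 87.5% and 100% (25, 16 and 16 reads). The pooled difference was 96.5 points (q = 3.01e-24), so control and methionine-treated rams lay near opposite ends of the scale. Its nearest listed cytosine, 2374 bp away, was nearly unmethylated at 1.28%.

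A similar contrast was seen on the plus strand of chromosome 23 at position 62925777, where the methionine-treated rams were all at 100% and the control rams at 36.0%, 0% and 0% (difference 87.5 points, q = 0.00431). Ram410 was unlike the other control rams there, and the call was lost without Ram424, Ram498 or Ram511 (q = 0.243, 0.163 and 0.184). On the plus strand of chromosome 13 at position 11340103 the control rams were at 16.7%, 4% and 36.4% and the methionine-treated rams at 100%, 90.9% and 100% (difference 79.0 points, q = 0.00151), and the call was lost without Ram410, Ram424 or Ram511 (q = 0.0304, 0.0536 and 0.112).

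Position 4553360 on the minus strand of chromosome 3 lay in an intron of CFAP77, which encodes a protein of cilia and flagella. Control rams were at 40%, 38.7% and 48.0%, and all methionine-treated rams were at 100% (difference 57.9 points, q = 1.78e-08). The control rams thus had partial levels and the methionine-treated rams a uniform one. The fifth, on the plus strand of chromosome 11 at position 5400064, was unmethylated in all control rams and at 48.0%, 41.7% and 90% in methionine-treated rams (difference 55.3 points, q = 3.54e-05), while a cytosine 70 bp away differed by 2.65 points. The call was lost without Ram410 or Ram423 (q = 0.025 and 0.0193).

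Near neighbours were available for 11 of the 29 DMCs, those with another listed cytosine within 200 bp. The neighbour differed in the same direction at 7 of the 11 and by over 20 points at 4 of these, 2 of which are the nearest neighbours of each other. It differed by under 5 points at 6 of the 11. At 17 DMCs the nearest listed cytosine was over 1000 bp away, so that no close neighbour could be set beside them. Most isolated DMCs thus rest on a single cytosine.

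The clearest case of a shared change, chosen after its values were seen, was a pair of isolated DMCs 175 bp apart in an intron of UBE3D, which encodes an E3 ubiquitin ligase, on chromosome 8. At position 11335967 on the minus strand the control rams were all at 100% and Ram424, Ram498 and Ram511 at 45.2%, 58.3% and 50% (difference −50.9 points, q = 1.47e-10). At position 11335792 on the plus strand the control rams were at 92.6%, 95.8% and 100% and the methionine-treated rams at 51.7%, 58.3% and 35.7% (difference −46.9 points, q = 2.47e-06). The methionine-treated rams were near the middle of the scale at both sites, and the pair was split over separate windows.

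At 3 further DMCs 1 diet was uniform and the other partly methylated. In an intron of GRIN2B, which encodes a subunit of the NMDA glutamate receptor, and in an intron of JADE2, which encodes a protein that takes part in histone acetylation, the methionine-treated rams had no methylated read and the control rams averaged 37.8% ± 3.34 and 43.6% ± 4.13 (SD, n = 3 each; q = 7.65e-06 and 1.28e-06). In an intron of TRPC7, a calcium-permeable ion channel gene, all methionine-treated rams were at 100% and control rams at 47.4% ± 3.01 (q = 3.71e-09), and a cytosine 13 bp away had a mean level of 98.1% and differed by 0.19 points. These were also chosen after their values were seen. Feature names came only from the annotation of the DMC list of the study. Of the 29 isolated DMCs, 16 could be annotated in this way, of which 11 were in introns and 5 intergenic, with none in an exon or promoter and 2 in repeats. The other 13, among them 7 of the 10 sites of largest change, are not on that list and have no annotation here. The 29 DMCs were spread over 16 chromosomes, and 19 were on the plus strand.

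At the q threshold, the isolated DMC with the largest q was on chromosome 3 at position 165047359 (q = 0.00666, −30.6 points), and the first site outside was on chromosome 22 at position 34397818 (q = 0.0116, 22.2 points).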

How the data were processed

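Sperm RRBS was analysed for 3 control and 3 methionine-treated rams. Bismark was used by the authors to align the trimmed 100-bp reads to Oar_rambouillet_v1.0. Duplicates were removed with molecular identifiers, and the authors deposited methylated and unmethylated read counts for cytosines with at least 10 reads in all rams, with strands apart. The embryo counts were not used here. Levels are methylated counts over coverage. Median coverage was 22 to 39 reads per ram, and Wilson intervals cover counting error only.

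Rams were the replicates in exact two-sided tests, by permutation of diets (20 assignments) or sign flips (64 patterns). Single cytosines were tested by logistic regression on diet with overdispersion of at least 1 and a chi-square test, adjusted over all 1850625 cytosines. The age of each ram, a term of the study's model, was not used here. The regression was tested on simulated data. Alternatives were limma 3.58.1 (R 4.3.3) on logit levels with a pseudocount of 0.5, an F test, a fit without the overdispersion, a minimum of 20 reads, a cap on the top 0.1% of coverage, q under 0.05, over 25 points, a grid shifted by 100 bp, no neighbour within 200 bp, 10 reads drawn per cytosine and each ram left out.

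Sites named were the isolated DMCs with the 5 largest decreases and 5 largest increases. The members, classes and rules were chosen with earlier results of these data known. Coordinates are those of the deposited counts, and gene, intron and repeat names are those the study gives for its own sites. Scripts ran in Python 3.11.15 (pandas 2.3.3, numpy 2.4.6, scipy 1.17.1).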

Additional observations from a re-analysis of the deposited data

Results flagged for a closer look

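At isolated cytosines, Ram498 had the lowest coverage of the 6 rams at 53.3% of sites, while each of the other rams was lowest at 7.58% to 11.1%. Among grouped cytosines Ram498 was lowest at 15.4%. It stood apart by Dixon's criterion, with a gap to the next ram of 0.923 of the whole range of the 6, above the 95% critical value. It was the only one of 12 measures of isolated cytosines to do so, and chance passes this criterion in about 1 in 20 groups. The mean level of Ram498 at isolated cytosines, 68.7%, was close to that of Ram511. Coverage also took part in which cytosines were listed. The part of this coverage in the diet differences was not tested.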

How the results depend on the processing

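The difference between isolated and grouped cytosines kept its sign under the 11 alternatives, and with 1 ram left out it was 49.3 to 49.5 points, where 5 rams cannot give an exact p below 0.0625. The mean level was lower in methionine-treated rams under all 12 alternatives. The log2 coverage ratio was −0.35 to −0.17 with 1 ram left out, the latter without Ram498. The diet difference in the share at 100% was −0.713 (without Ram498) to 4.32 points (without Ram424) and −2.83 points with 10 reads drawn. The between-diet minus within-diet mean absolute difference of pairs was −0.307 to 0.397 points with 1 ram left out. It turned positive without Ram424, Ram498 (0.0742) or Ram511 (0.0665).

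The 29 isolated DMCs became 0 with the F test (smallest q 0.971) and with limma (0.0795). At a minimum of 20 reads they were 0 of 2023 (103 at an unadjusted p under 0.05, smallest q 0.0104), where 61 of all cytosines passed. At the main share so few sites would hold few calls, and no share of all cytosines is given beside the 61. Without the overdispersion correction they were 438 (5905 over all cytosines, in place of 341). Where no other listed cytosine lay within 200 bp they were 18, but of only 16001 isolated cytosines (0.112%, against 0.0914% of all isolated ones). With 1 ram left out they were 38 (without Ram423) to 75 (without Ram444), with 58 without Ram410, 58 without Ram424, 63 without Ram498 and 49 without Ram511, of which 21 to 23 were among the 29. Over all cytosines the counts were 523, 643, 854, 1424, 559 and 446 in the same order, so both counts rose in each case, though not in step. The cause of these changes was not tested. The count was within 1.5 times of 29 under the other alternatives, and on a shifted grid 20 of the sites were shared. Of the 12 sites named with their levels in each ram, 12 lost the call with the F test and with limma, and 5 with some ram left out, and none changed sign. No paired analysis was possible because the rams of the 2 diets share no number in the labels. Coverage of 10 to 14 reads at many isolated cytosines of Ram498 limits what single sites can show.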
